A study of Mus musculus with 6 samples.

Results

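A set of 30 lysosomal genes was followed in RNA pulled down with tagged ribosomes from mouse corpus callosum, the white matter tract that joins the cerebral hemispheres. They were taken by symbol from a list of lysosomal enzymes and membrane proteins that leaves out genes used as microglial markers, and all 30 were found among the 39017 identifiers of the count table. The mice were C57BL/6 and carried RiboTag with Olig1-Cre in both groups, so that RPL22, a protein of the large ribosomal subunit, is HA-tagged wherever Cre has been active under Olig1, a gene of the oligodendrocyte lineage. That driver marks progenitors as well as mature oligodendrocytes, and RNA caught without a tag stays in such a pull-down. Control libraries are replicates 24, 26 and 27. Those of replicates 30, 31 and 32 came from mice on a diet with 0.2% cuprizone, a compound that binds copper and causes oligodendrocyte death and demyelination. The shared protocol describes young adult females of 8 to 10 weeks, cuprizone for 6 or 9 weeks, and 3 weeks of recovery, without saying at which of these points the cuprizone libraries were taken.

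Lysosomes break down proteins, glycans, glycosaminoglycans and lipids with acid hydrolases, most of which are made in the endoplasmic reticulum, tagged with mannose 6-phosphate and sent on by sorting receptors. The transcription factor TFEB switches on many of these genes by binding a short palindrome, the CLEAR element, whose core is the E-box CACGTG. In white matter the sphingolipids and glycolipids of myelin pass through this pathway, and loss of single hydrolases causes storage diseases, several of which damage myelin.

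Total counts were 18549360 to 18771737 in the control libraries and 19455245 to 22381307 in the cuprizone libraries, and levels are given as CPM, counts scaled to library size after TMM, a method that levels out differences in library make-up. The labelled cell type was checked on markers. All 12 myelin and mature oligodendrocyte genes were lower in cuprizone (median log2 fold change -3.08, summed level 61840 to 83506 CPM in control and 8080 to 15108 CPM in cuprizone). None of the 8 progenitor markers passed the test, and 0 of the 8 had an unadjusted p under 0.05. The control mean of Olig1 was 1438 ± 184 CPM, and its cuprizone mean 661 ± 167 CPM (SD, n = 3 per group). Olig1 itself passed as lower in cuprizone (log2 fold change -1.12, edgeR adjusted p = 0.0334), without overlap between groups. Markers of microglia and macrophages were present in every library. So were the 10 astrocyte markers, which summed to 22494 to 25268 CPM in control and 15900 to 30671 CPM in cuprizone. In each cuprizone library the astrocyte sum lay above the myelin sum. In such bulk RNA, fewer cells of a type and less RNA per cell cannot be told apart. Cuprizone replicate 32 was the most distant library of its group: chi-square over degrees of freedom was 85.1 and 101 when it was paired with replicates 30 and 31, and 26.6 when those were paired with each other. Nothing says whether the libraries came from separate animals, so p-values measure the spread between these libraries.

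Tfeb fell, and no other gene of the set passed the test in either direction. The test was edgeR's quasi-likelihood test with Benjamini-Hochberg adjustment over the 16569 genes tested, at an adjusted p of 0.05. All 30 lysosomal genes passed the filter on low counts, with at least 141 counts in each library. Of all genes tested 7.57% were called, 5.70% lower and 1.87% higher, against 1 of 30 lysosomal genes lower and 0 higher. With DESeq2 the numbers were 2 lower and 1 higher (Tfeb and Cln3 lower, Ctsl higher). Over all genes DESeq2 called more genes higher, 862 against 310 with edgeR. Of lysosomal genes limma-voom gave the same counts as edgeR. At an unadjusted p under 0.05 there were 4 lower and 7 higher, 36.7% of the set against 23.3% of all genes.

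The fold changes of the set were small. Their median was 0.20 on the log2 scale, against 0.02 for all genes. Of the set 20 were positive (66.7%) and 10 negative, where 52.6% of all genes tested were positive. The 29 genes that did not pass ran from -0.58 to 1.06, with adjusted p from 0.0635 to 0.973 by edgeR's test. For 23 of these the 95% interval of the log2 fold change lay within 1 of 0 in both directions on the log2 scale. For the other 6 (Ctsz, Ctsh, Man2b1, Galns, Sgsh and Grn) the interval reached beyond it. The libraries of the groups did not overlap for 12 genes, which is 40.0% of the set where 30.2% of all genes tested had no overlap. Of these 7 were higher in cuprizone, 23.3% of the set against 12.6% of all genes, and 5 were lower, 16.7% against 17.6%. Summed over the set, the level was 6555 ± 327 CPM in control and 7057 ± 142 CPM in cuprizone (SD, n = 3 per group). As a share of raw counts, without TMM, the set made up 0.606 ± 0.0369% in control and 0.762 ± 0.00804% in cuprizone (SD, n = 3 per group). TMM factors were 0.915 to 0.941 in control and 1.046 to 1.108 in cuprizone, so the size of this difference depends on the scaling.

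**Figure D1:**
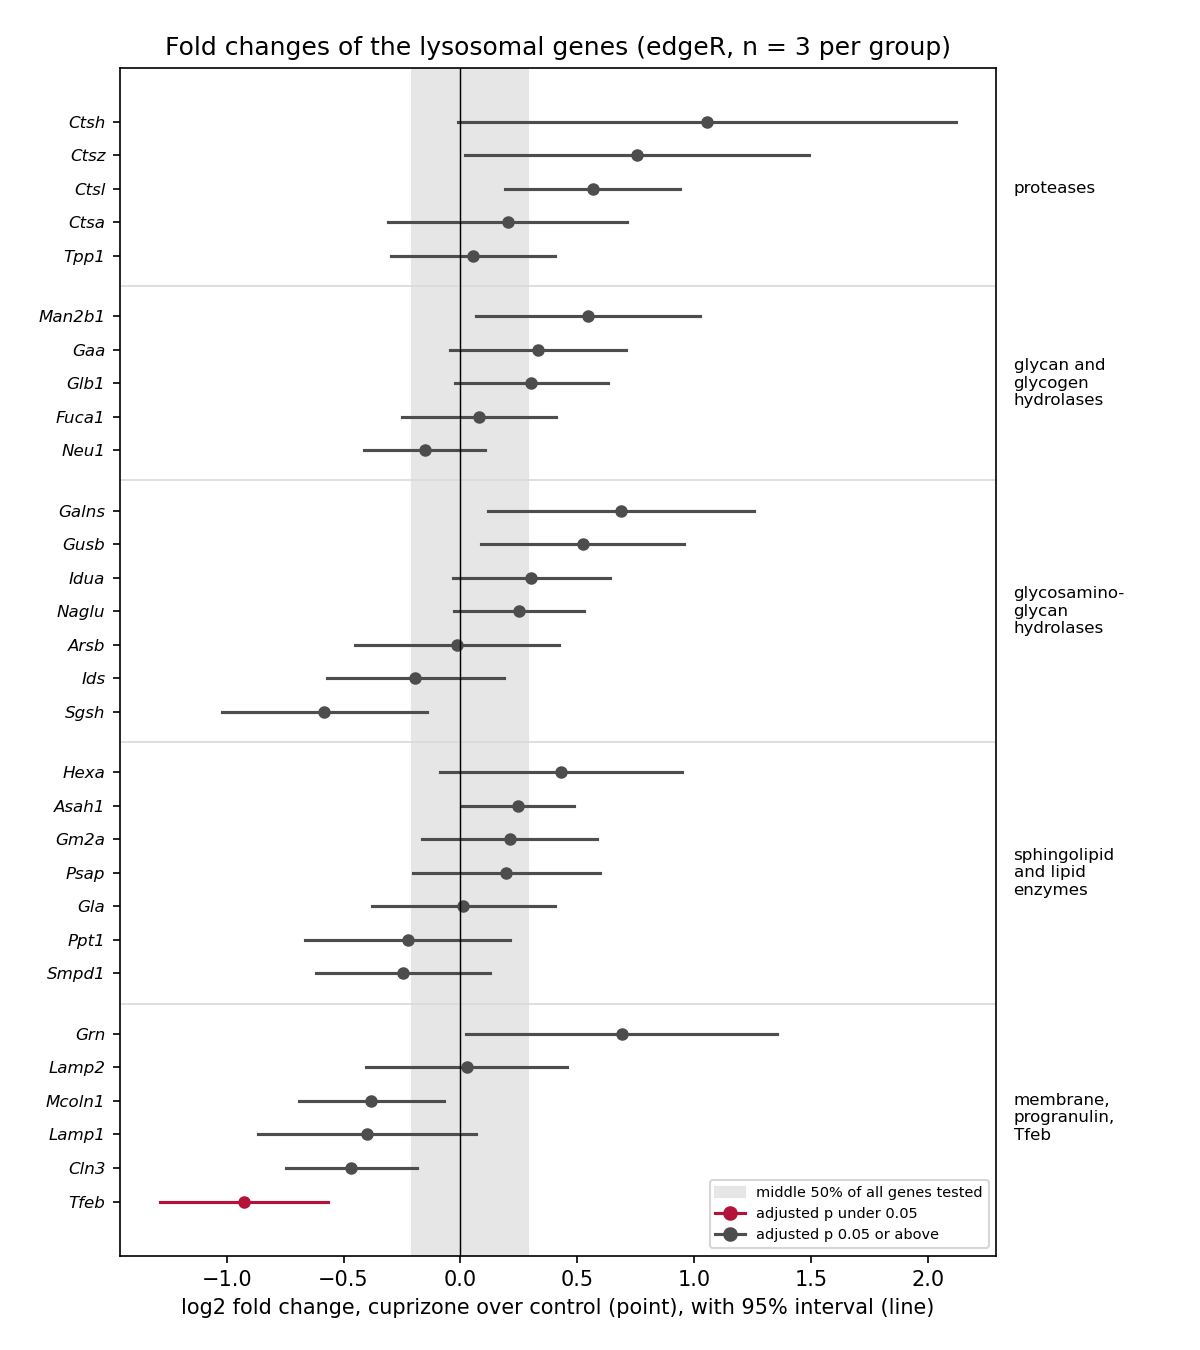
Log2 fold change of each of the 30 lysosomal genes, cuprizone over control (points), with its 95% interval (lines) from edgeR, grouped by role; the grey band holds the middle 50% of all genes tested. Tfeb, in red, is the gene that passed the test, and the membrane proteins Cln3, Lamp1 and Mcoln1 lie on the same side of 0.

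**Figure D2:**
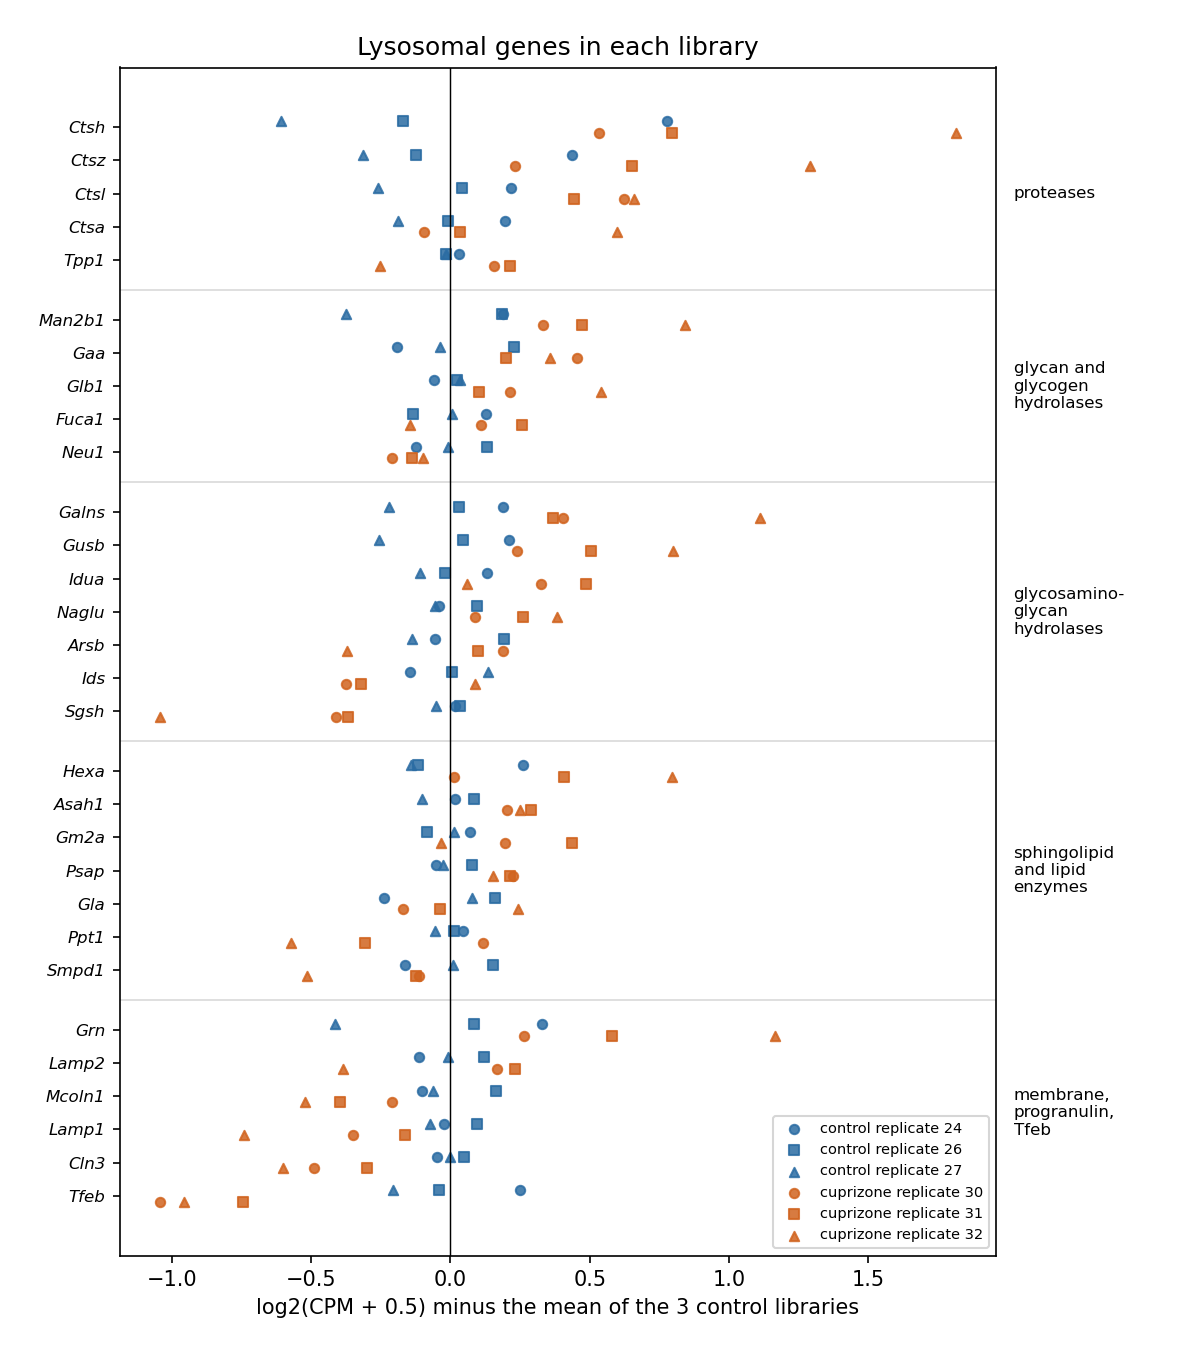
Level of each lysosomal gene in each of the 6 libraries, as log2(CPM + 0.5) minus the mean of the 3 control libraries; colours give the group and marker shapes the replicate. The cuprizone libraries of Tfeb lie left of all its control libraries, while for Ctsh, Ctsz and Grn cuprizone replicate 32 lies far to the right of the rest.

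Tfeb encodes the master regulator of lysosome genes (ENSMUSG00000023990, chromosome 17, 47737030 to 47792419 on the plus strand of GRCm38). Its level was 106, 86.3 and 76.9 CPM in control replicates 24, 26 and 27 and 42.9, 52.9 and 45.6 CPM in cuprizone replicates 30, 31 and 32. The groups did not overlap, and the highest cuprizone library stood well under the lowest control. The log2 fold change was -0.93 ± 0.15 (SE; 95% interval -1.29 to -0.57; edgeR adjusted p = 0.0133), lower in 3 of 3 cuprizone libraries, and 4.99% of all genes tested had a fold change as low. Its adjusted p was 0.0588 without control replicate 26 and 0.0633 without cuprizone replicate 30, with log2 fold changes of -0.95 and -0.86. No annotated gene overlaps the exons of Tfeb. The fall was smaller than that of each of the 12 myelin markers, whose log2 fold changes ran from -4.74 to -1.92, and the part of mature oligodendrocyte RNA in it was not tested.

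None of the relatives of TFEB passed the test. Tfe3, which binds the same element, stood at 76.1, 59.7 and 63.3 CPM in the control libraries and 78.0, 89.3 and 89.7 CPM in the cuprizone libraries, so that all cuprizone libraries lay above the controls (log2 fold change 0.37 ± 0.13, edgeR adjusted p = 0.149). Mitf stood at 17.3 ± 0.554 CPM and 15.5 ± 1.51 CPM (SD, n = 3 per group; log2 fold change -0.16, adjusted p = 0.483), and Tfec, at 0.155 CPM in control, was under the filter on low counts. Rragd encodes a GTPase that holds the TFEB family and the growth kinase mTORC1 at the lysosome. It rose from 90.5, 82.6 and 88.6 CPM to 136, 121 and 123 CPM (0.54 ± 0.11, adjusted p = 0.0288). The call was lost in 4 leave-one-out fits (controls 24, 26 and 27, cuprizone 30), with adjusted p as high as 0.143. Apart from Tfeb itself, which fell, 14 genes of the TFEB family and of nutrient sensing at the lysosome were tested. Of these Rragd was the 1 that rose and 0 fell, where 1.87% of all genes tested rose and 5.70% fell.

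**Figure D3:**
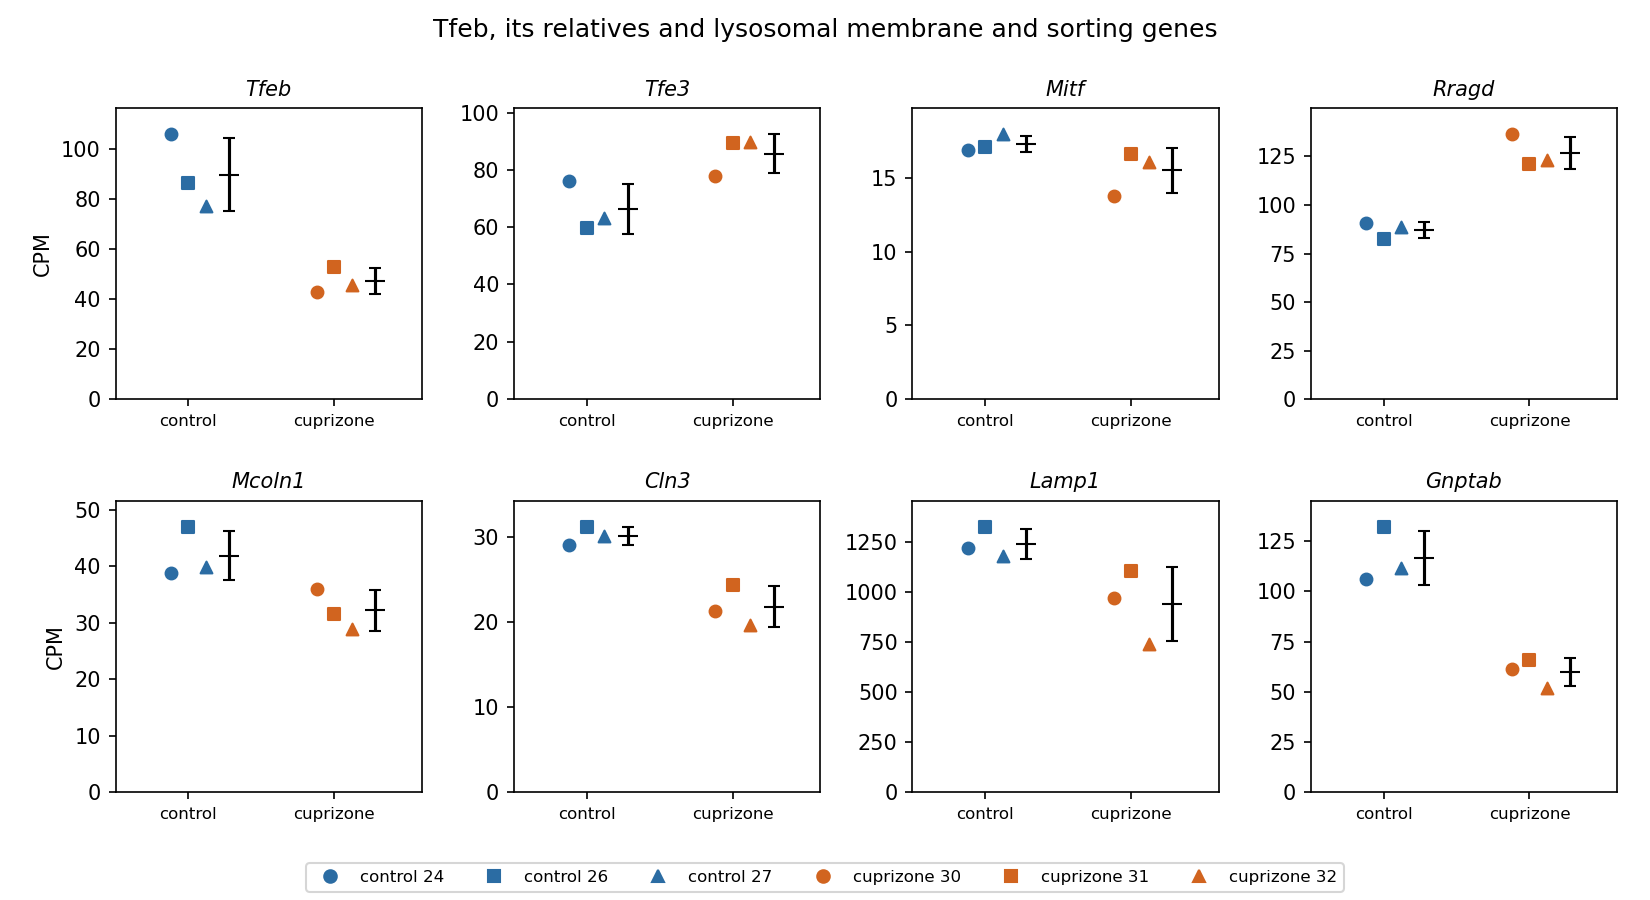
CPM of Tfeb, Tfe3, Mitf, Rragd, Mcoln1, Cln3, Lamp1 and Gnptab in each library (symbols), with the mean and SD of each group (black bars, n = 3). Genes were picked with their values known, so that the lack of overlap in these 8 panels is no count to set against the 30.2% of all genes tested without overlap; Tfe3 and Rragd are higher in cuprizone and the other 6 are lower.

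None of the 4 lysosomal membrane proteins passed the test. In 3 of them every cuprizone library lay below every control, as in 17.6% of all genes tested, and 3 of 4 is too few to set against that share. Lamp1, a heavily glycosylated protein that lines the lysosomal membrane (chromosome 8, 13159161 to 13175338), stood at 1216, 1321 and 1176 CPM in control and 971, 1105 and 739 CPM in cuprizone. Its log2 fold change was -0.40 ± 0.20 (edgeR adjusted p = 0.280), with replicate 32 lowest. Cln3, a membrane protein whose loss causes juvenile Batten disease (chromosome 7, 126571207 to 126585817), stood at 29.1, 31.2 and 30.1 CPM in control and 21.3, 24.4 and 19.7 CPM in cuprizone.

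The controls of Cln3 lay close together and well above the cuprizone libraries. Its log2 fold change of -0.47 ± 0.12 had an adjusted p of 0.0635 with edgeR and 0.0190 with DESeq2. Its exons share 442 bases with Apobr on the opposite strand, and the sources used here do not give the strand setting. Exons of Ctsl, Ctsz, Ctsa, Glb1, Idua, Sgsh, Arsb, Hexa, Ppt1, Lamp1 and Grn share bases with annotated neighbours too, most in Arsb (1948 bases with Gm26527), and their counts are uncertain to that extent. Mcoln1, the calcium channel TRPML1 through which lysosomes release calcium (chromosome 8, 3500457 to 3515232), stood at 38.9, 46.9 and 40.0 CPM and at 36.1, 31.6 and 28.9 CPM, a log2 fold change of -0.38 ± 0.13 (edgeR adjusted p = 0.139). Lamp2, the partner of LAMP1 that also serves chaperone-mediated autophagy, overlapped between groups, at 146 ± 11.8 CPM and 149 ± 32.5 CPM (SD, n = 3 per group; 0.03, adjusted p = 0.949).

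RefSeq promoter windows (GRCm38.p6, 250 bases before to 50 after a start) were at hand for 27 of the 30 genes; Ctsh, Galns and Asah1 had none. They were searched for the CLEAR palindrome of 10 bases, printed in capitals in the Cln3 stretch, for the shorter TCACGTGA, added after the other motifs had been read, and for the core CACGTG, which both longer motifs contain; each reads the same on both strands. The full palindrome was in 1 of the 27 genes (3.70%), where 0.370% of 27025 genes with a window had it. The shorter TCACGTGA was in 4 genes (14.8% against 1.12%), and the core in 10 (37.0% against 8.09%). As TFEB switches on many lysosomal genes through this element, higher shares were likely beforehand and are no result about cuprizone. Stretches around the cores are shown for the membrane proteins that lay lower in cuprizone and for 2 hydrolases, Gla and Gaa, that did not. They run 5′ to 3′ on the strand of the gene and stop before the start, with the longest motif matched in capitals.
Lamp1, chr8:13159078-13159160, plus strand, 4 cores: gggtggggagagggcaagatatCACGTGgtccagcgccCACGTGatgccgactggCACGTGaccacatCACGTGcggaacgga
Cln3, chr7:126583340-126583369, minus strand, the full palindrome before a further start inside the gene: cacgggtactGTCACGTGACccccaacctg
Mcoln1, chr8:3500462-3500491, plus strand: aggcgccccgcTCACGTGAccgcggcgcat
Gla, chrX:134601182-134601211, minus strand: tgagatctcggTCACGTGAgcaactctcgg
Gaa, chr11:119267801-119267850, plus strand: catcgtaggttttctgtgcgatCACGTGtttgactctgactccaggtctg

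The 10 genes with a core (Ctsl, Ctsa, Glb1, Gaa, Naglu, Sgsh, Gla, Lamp1, Cln3 and Mcoln1) had log2 fold changes from -0.58 to 0.56 with a median of 0.11. The 17 without ran from -0.93, that of Tfeb itself, to 0.76 with a median of 0.08, so the ranges lay across each other. For TCACGTGA the median was -0.18 in the 4 genes with it (Ctsa, Gla, Cln3 and Mcoln1) and 0.20 in the 23 without, and the 1 gene with the full palindrome, Cln3, was at -0.47 where the 26 without had a median of 0.14. These differences were not tested. Of the sequences printed, those of Lamp1, Cln3 and Mcoln1 belong to genes with negative fold changes, that of Gla to a gene at 0.01 and that of Gaa to a gene at 0.33. The stretch of Sgsh, a hydrolase with a core and a log2 fold change of -0.58, is not printed. The windows of Cln3, Mcoln1 and Gla held 2 cores each, of which 1 is printed. The Cln3 and Mcoln1 stretches overlap exons of the same genes in the GENCODE annotation, and the Gla stretch an exon of the neighbouring Hnrnph2. A match in these letters is a description of the sequence, and binding was not measured.

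The lysosomal proteases had positive fold changes, 5 of 5, and none passed. Over all genes tested 52.6% were positive, and 5 genes are too few to set against that share. Ctsl encodes cathepsin L, a cysteine protease (chromosome 13, 64359337 to 64370890). Its level was 199, 176 and 143 CPM in control and 263, 232 and 270 CPM in cuprizone, with no overlap, and its log2 fold change was 0.56 ± 0.16 (adjusted p = 0.0834 with edgeR and 0.0121 with DESeq2). A predicted gene on the opposite strand, Gm47123, shares 1742 of the 6489 exonic bases of Ctsl. Ctsh, cathepsin H, an aminopeptidase, had the largest fold change of the set. It stood at 37.6, 19.3 and 14.1 CPM in control and 31.6, 38.1 and 77.7 CPM in cuprizone, where control replicate 24 lay above cuprizone replicate 30.

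The log2 fold change of Ctsh was 1.06 ± 0.45 (edgeR adjusted p = 0.219), and it was 0.56 without cuprizone replicate 32. Ctsz, cathepsin Z, a carboxypeptidase, stood at 272, 185 and 162 CPM and at 236, 316 and 493 CPM, also with overlap (0.76 ± 0.31, adjusted p = 0.203), and at 0.42 without cuprizone replicate 32. Ctsa, cathepsin A, which also shields neuraminidase 1 and beta-galactosidase in a complex, had a log2 fold change of 0.20 that became -0.04 without cuprizone replicate 32. Tpp1, tripeptidyl peptidase 1, whose loss causes late infantile Batten disease, stood at 153 ± 2.85 CPM and 159 ± 26.7 CPM (SD, n = 3 per group; 0.05, adjusted p = 0.868).

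Among enzymes that trim glycoprotein chains and glycogen, 4 of 5 had positive fold changes, against 52.6% of all genes tested, and none passed. Man2b1, lysosomal alpha-mannosidase, stood at 78.5, 78.4 and 53.1 CPM in control and 86.8, 95.8 and 124 CPM in cuprizone (0.55 ± 0.20, edgeR adjusted p = 0.165), with no overlap. Glb1, beta-galactosidase, did not overlap either, at 26.8, 28.4 and 28.6 CPM and at 32.5, 30.02 and 40.8 CPM (0.30 ± 0.14, adjusted p = 0.246). Gaa, the acid alpha-glucosidase that digests glycogen and is lost in Pompe disease, overlapped at its edges, with 280.5 ± 41.9 CPM and 353 ± 31.3 CPM (SD, n = 3 per group; 0.33, adjusted p = 0.270). Fuca1, alpha-fucosidase, and Neu1, the sialidase held by cathepsin A, had log2 fold changes of 0.08 and -0.15.

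The 7 enzymes that take apart glycosaminoglycans, the sugar chains of proteoglycans, had fold changes of both signs, and none passed. Galns, which removes sulfate from keratan and chondroitin chains, had the lowest control level per length of the set, and stood at 11.1, 9.86 and 8.21 CPM in control and 12.9, 12.6 and 21.4 CPM in cuprizone (0.69 ± 0.24, edgeR adjusted p = 0.146). Gusb, beta-glucuronidase, stood at 47.1, 41.9 and 33.9 CPM and at 48.0, 57.7 and 71.0 CPM (0.52 ± 0.18, adjusted p = 0.146). Neither overlapped between groups, although the lowest cuprizone library of Gusb lay within 1 CPM of the highest control.

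Sgsh, the sulfamidase of heparan sulfate lost in Sanfilippo syndrome type A, lay on the other side. It stood at 47.8, 48.3 and 45.6 CPM in control and 35.4, 36.5 and 22.7 CPM in cuprizone. All cuprizone libraries were lower, replicate 32 most, and the log2 fold change was -0.58 ± 0.19 (edgeR adjusted p = 0.117), or -0.39 without replicate 32. Its exons share 955 bases with Card14 on the opposite strand. Naglu, which acts on heparan sulfate as well, and Idua, alpha-iduronidase, had log2 fold changes of 0.25 and 0.30, and Ids, iduronate sulfatase, and Arsb, arylsulfatase B, had -0.19 and -0.01, all with overlapping groups and adjusted p of 0.256 to 0.973.

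The enzymes and helpers of sphingolipid and lipid breakdown, through which the lipids of engulfed or recycled myelin pass, stayed within a log2 change of 0.43, and none of the 7 passed. Psap encodes prosaposin, the precursor of the saposins that lift sphingolipids to their hydrolases (chromosome 10, 60277627 to 60302597). It was the most abundant gene of the set, at 1997, 2186 and 2033 CPM in control and 2416, 2402 and 2299 CPM in cuprizone. The groups did not overlap, by a small margin, and the log2 fold change was 0.20 ± 0.17 (95% interval -0.21 to 0.60; edgeR adjusted p = 0.540). Asah1, acid ceramidase, did not overlap either, at 58.1, 60.9 and 53.4 CPM and at 66.1, 70.3 and 68.3 CPM, a log2 fold change of 0.25 with the smallest standard error of the set, 0.10 (adjusted p = 0.201).

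Hexa, the alpha subunit of beta-hexosaminidase whose loss causes Tay-Sachs disease, stood at 130.4, 100.3 and 98.5 CPM in control and 109.7, 145 and 189 CPM in cuprizone, with overlap (0.43 ± 0.22, adjusted p = 0.292). Gm2a, the activator that presents ganglioside GM2 to that enzyme, had a log2 fold change of 0.21. Gla, alpha-galactosidase A, stood at 16.0 ± 2.31 CPM and 16.2 ± 2.47 CPM (SD, n = 3 per group; 95% interval of the log2 fold change -0.38 to 0.40). Smpd1, acid sphingomyelinase, and Ppt1, a palmitoyl thioesterase, had log2 fold changes of -0.24 and -0.23, with replicate 32 the lowest cuprizone library of each. Grn, which encodes progranulin, a secreted and lysosomal glycoprotein cut into granulins, stood at 236, 199.7 and 141 CPM in control and 226, 282 and 423 CPM in cuprizone (0.69 ± 0.28, edgeR adjusted p = 0.200), and its log2 fold change was 0.40 without replicate 32.

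Some lysosomal genes had their libraries in the same order within each group as the summed markers of microglia and macrophages, cells that are rich in lysosomes. The 20 markers of that list, all tested, summed to 3608, 1970 and 1758 CPM in control replicates 24, 26 and 27 and to 2701, 3628 and 6772 CPM in cuprizone replicates 30, 31 and 32, so control replicate 24 lay above cuprizone replicate 30. No marker of the list was at 0, 18 of 20 had positive fold changes, their median was 0.71, and 0 passed (4 at an unadjusted p under 0.05). The order of libraries within both groups was the same as that of this sum for 7 of the 30 lysosomal genes (23.3%), Ctsh, Ctsz, Ctsa, Grn, Gusb, Hexa and Man2b1, and for 4.17% of all genes tested. All 7 had positive fold changes, with a median of 0.55, and the other 23 had a median of 0.03 with 13 positive. Over all genes tested, 691 had that order, of which 513 had positive fold changes, with a median of 0.43. The other 15878 had a median of 0.014. For Man2b1 and Hexa a pair of control libraries lay so close that the order between them is within counting error. The part of these cells in the fold changes was not tested.

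**Figure D4:**
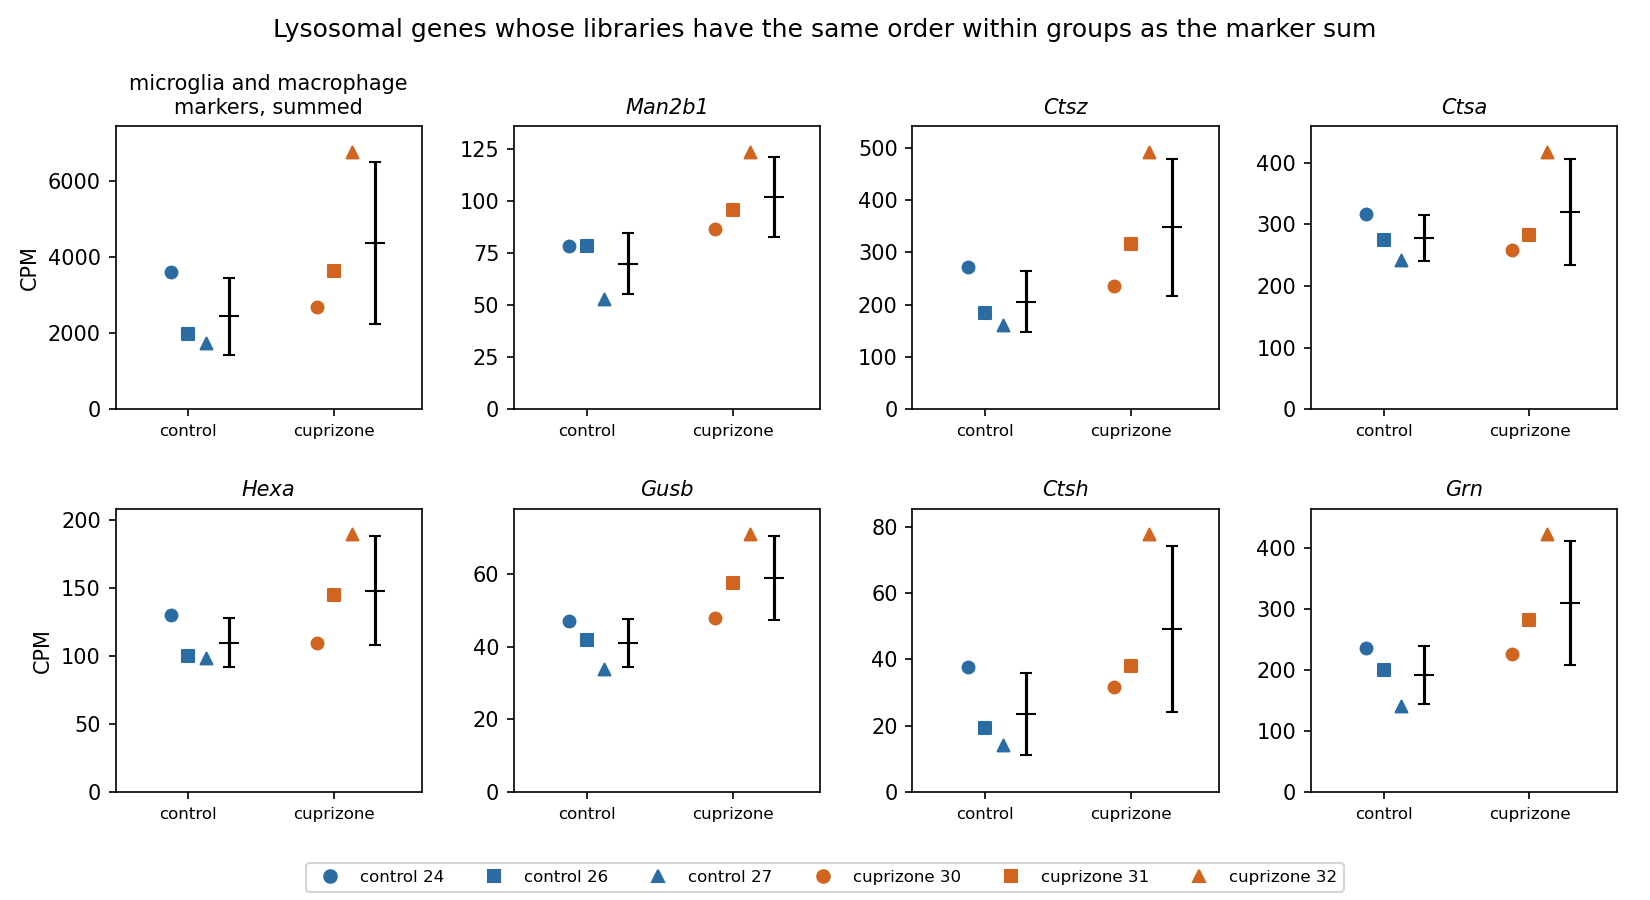
Summed CPM of the 20 microglia and macrophage markers (first panel) and CPM of the 7 lysosomal genes with the same order of libraries within groups, each library a symbol, with mean and SD of each group (black bars, n = 3). In each panel replicate 24 is the highest control and replicate 32 the highest cuprizone library.

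Of 9 endothelial and pericyte markers none passed, 3 had an unadjusted p under 0.05 and the median was 1.19. Their summed levels were 56.3 to 61.0 CPM in control, highest in replicate 24, and 59.2 to 137 CPM in cuprizone, highest in replicate 32. Of 10 astrocyte markers none passed, 0 had an unadjusted p under 0.05 and the median was 0.07; their sum was lowest in cuprizone replicate 32, at 15900.5 CPM against 22494 to 30671 CPM elsewhere. The 8 neuron markers had a median of 0.35, with 0 passed and 0 at an unadjusted p under 0.05. Their part in the lysosomal values was not tested.

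Levels were compared between genes per kilobase of exonic length. In control, Psap stood at 755 ± 36.7 CPM per kb and Lamp1 at 463 ± 27.9 CPM per kb, and together they made up 50.5% of the summed CPM of the set. Ctsz followed at 143 ± 40.5 CPM per kb. A run of 7 genes from Gm2a (66.3 CPM per kb) to Hexa (55.0 CPM per kb) did not differ between neighbours beyond their spread. The lowest in control were Cln3, Gla and Galns at 5.21, 4.91 and 3.67 CPM per kb, and in cuprizone Gla, Mcoln1 and Cln3 at 4.96, 4.26 and 3.77 CPM per kb. Tfeb went from place 17 of 30 in control, at 15.8 ± 2.58 CPM per kb, to place 24 in cuprizone, at 8.31 ± 0.914 CPM per kb, while Psap, Lamp1 and Ctsz held the top 3 places in both groups. Exonic lengths join all annotated transcripts of a gene, so genes with long, rarely used exons come out too low on this scale.

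**Figure D5:**
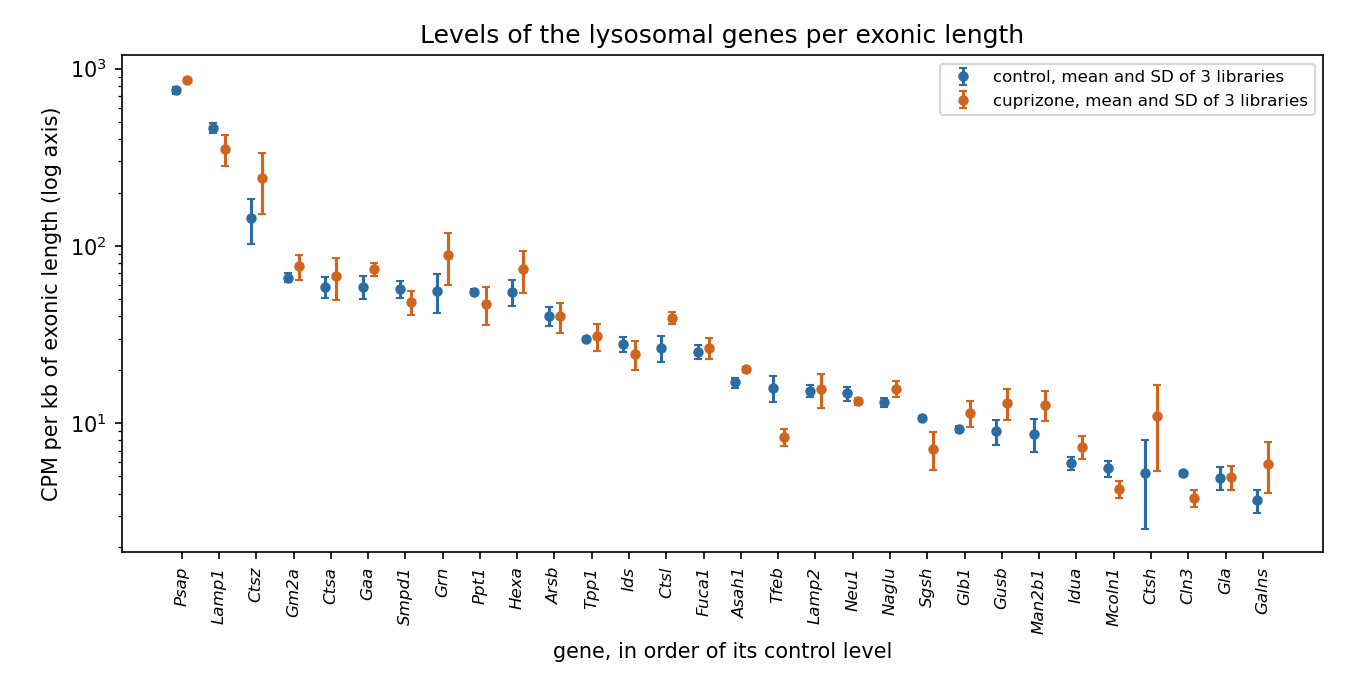
Level of each lysosomal gene in CPM per kb of exonic length (log axis), mean and SD of 3 libraries per group, in the order of the control level. Psap and Lamp1 stand above the rest in both groups, and Tfeb is the gene whose cuprizone point lies furthest below its control point.

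Of other genes of the pathway, those that tag hydrolases and sort them to the lysosome included 2 of 9 that fell and 0 that rose, with a median of -0.14. Over all genes tested 5.70% fell and 1.87% rose, and 9 genes are too few to set against these shares. Gnptab, which encodes the subunits of the enzyme that starts the mannose 6-phosphate tag, stood at 106, 132 and 112 CPM in control and 61.5, 65.6 and 52.1 CPM in cuprizone. It fell by 0.96 on the log2 scale (SE 0.14, edgeR adjusted p = 0.00824), and it passed with each library left out in turn (adjusted p up to 0.0424). Sort1, the sorting receptor sortilin, fell from a mean of 640 ± 91.1 CPM to 390 ± 33.8 CPM (SD, n = 3 per group; -0.71 ± 0.17, edgeR adjusted p = 0.0469), and it did not pass without any 1 of the 6 libraries (adjusted p 0.0529 to 0.162). The receptors M6pr and Igf2r had log2 fold changes of -0.20 and -0.14. Gga2, an adaptor for sorting receptors, was at 0.55 (adjusted p = 0.106).

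Of 19 genes listed as other lysosomal membrane proteins 2 fell and 0 rose, with a median of -0.10. Over all genes tested 5.70% fell and 1.87% rose, and 19 genes are too few to set against these shares. The list includes Cln6 and Cln8, whose proteins reside in the endoplasmic reticulum. Abca2, a lipid transporter abundant in oligodendrocytes, fell from a mean of 873 ± 81.9 CPM to 166 ± 43.0 CPM (SD, n = 3 per group; -2.40 ± 0.24, edgeR adjusted p = 0.00215). Npc1, which moves cholesterol out of lysosomes, fell from a mean of 348 ± 56.9 CPM to 150.1 ± 46.8 CPM (SD, n = 3 per group; -1.21 ± 0.25, edgeR adjusted p = 0.0326). The call was lost in 4 leave-one-out fits (controls 24, 26 and 27, cuprizone 30), with adjusted p as high as 0.114. Laptm4b, a late endosomal protein, was at -0.79 ± 0.23. Its adjusted p was 0.0867 with edgeR, or 0.0477 without cuprizone replicate 32, and 0.0170 with DESeq2.

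None of the 18 subunits and helpers of the V-ATPase, the pump that acidifies the lysosome, passed with edgeR. Their median was -0.02, 1 reached an unadjusted p under 0.05, and by DESeq2 1 was lower, Atp6v0b, a subunit of the membrane sector. That subunit had a log2 fold change of -0.44 ± 0.14 and an edgeR adjusted p of 0.106, or 0.0212 without cuprizone replicate 32. Atp6ap1 and Atp6ap2, accessory proteins of the pump, were at -0.23 and -0.35.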

How the data were processed

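The authors deposited raw read counts per Ensembl mouse gene for 6 libraries, 3 control and 3 cuprizone, matched to samples by title. Per the submitters' processing notes, bcl2fastq 2.17 and build mm10 (GRCm38) were used; the sources used here do not give the aligner, counter or strand setting. Names, coordinates and exonic lengths came from GENCODE M21, which matched 37607 of 39017 identifiers. The fit used edgeR 4.0.16 under R 4.3.3: filterByExpr (minimum count 10, minimum total 15), TMM factors (0.915 to 1.11), robust glmQLFit and glmQLFTest, 2-sided. Standard errors are the fold change over the square root of F, and intervals use the fit's degrees of freedom. No permutation test was made, since 3 against 3 cannot give a p below 0.1. Alternatives were other scalings and filters, DESeq2 1.42.0, limma-voom (limma 3.58.1) and leaving out each library; scaling without myelin genes was added after seeing the data. The procedure was tested on simulated counts. All 30 genes, and the 3 of each other lysosome list with the smallest adjusted p, were to be named, except that some are not reported here; Tfec, Mitf, Atp6ap1 and similar names beyond this were chosen for their role after values were seen. Members and lists were chosen with earlier results of these data known. Promoter sequences are from RefSeq.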

Additional observations from a re-analysis of the deposited data

How the results depend on the processing

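Over 13 alternatives, 374 of 390 log2 fold changes of lysosomal genes kept their direction and their side of the threshold. For 29 of the 30 genes that side was not passing, so the count says little about how firm a call is. Tfeb passed in 11 of the 13, with log2 fold changes from -1.03 to -0.77. The 12 reversed values belonged to 6 genes near 0 that passed in none of these fits. Arsb was at 0.042 with upper-quartile scaling and at -0.12 to 0.14 with a library left out; over the same fits Gla ran from -0.11 to 0.10, Lamp2 from -0.088 to 0.20, Tpp1 from -0.037 to 0.19, Fuca1 from -0.018 to 0.18 and Ctsa from -0.038 to 0.33. Upper-quartile scaling moved the median of the set to 0.25, of the list of other hydrolases to 0.11 and of other membrane proteins to -0.044. The V-ATPase moved to 0.037, tagging and sorting to -0.085 (1 lower) and the TFEB family list, without Tfeb, to 0.012. Without a filter 1 tagging and sorting gene was lower. DESeq2 called 862 genes higher in all, and of the set 1 higher and 2 lower. It called 2 genes of the list of other hydrolases higher, 1 V-ATPase gene lower and 1 tagging and sorting gene higher. Of other membrane proteins DESeq2 also called Laptm4b lower. With a library left out, all genes called ran from 65 to 464 higher and 474 to 963 lower. In those fits 0 to 1 lysosomal genes of the set were lower, with a median of 0.13 to 0.22. The list of other hydrolases had 0 to 1 lower and a median of 0.052 to 0.13. Other membrane proteins had 0 to 1 higher, 1 to 3 lower (3 without cuprizone replicate 31 or 32) and a median of -0.22 to -0.032. The V-ATPase had 0 to 1 lower and a median of -0.12 to 0.050. Tagging and sorting had 1 lower in each and a median of -0.18 to -0.017. The TFEB family list, without Tfeb, had 0 to 1 higher and a median of -0.050 to 0.055. The cause of these shifts was not tested. No paired analysis was possible because the groups share no replicate number. Every gene of the set had at least 141 counts in each library; how depth or the number of libraries limits the calls was not tested.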

Other observations

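A list of hydrolases and related genes outside the set, among them those often used as microglial markers, was tested in the same fit. It also holds Npc2, Sumf1 and Hgsnat, which are not hydrolases. Of its 25 genes 1 fell and 0 rose, where 5.70% of all genes tested fell and 1.87% rose. The median log2 fold change of the list was 0.05. Ctsd, the main aspartic protease of lysosomes, stood at 1816, 1313 and 1081 CPM in control replicates 24, 26 and 27 and at 1483, 2019 and 3450 CPM in cuprizone replicates 30, 31 and 32 (0.72 ± 0.36, edgeR adjusted p = 0.276). Ctsb, a cysteine protease, did not overlap between groups, at 1272, 1096 and 925 CPM and at 1412, 1536 and 1873 CPM (0.55 ± 0.21, adjusted p = 0.165). In Ctsd, Ctsb, Ctsc and Ctss replicate 24 was the highest control and replicate 32 the highest cuprizone library. Those libraries also had the highest summed microglia and macrophage markers in their groups. The same libraries had the highest summed endothelial and pericyte markers (61.0 CPM in control, 137 CPM in cuprizone). Replicate 32, though not replicate 24, was also the highest of its group for the summed neuron markers. Other genes of the 25 went the other way: in Ctsf, Ctso, Galc, Arsa, Hgsnat and Plbd2 replicate 32 was the lowest cuprizone library. How many of the 25, or of all genes, shared either pattern was not counted. The part of any of these cell types was not tested.

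Galc, the galactosylceramidase that digests a main lipid of myelin and is lost in Krabbe disease, stood at 59.2, 66.7 and 56.1 CPM in control and 44.4, 53.1 and 36.1 CPM in cuprizone, without overlap (-0.45 ± 0.16, edgeR adjusted p = 0.153). Arsa, which removes sulfate from sulfatide, had a log2 fold change of -0.10. The gene that fell was Ctsk, cathepsin K, known from bone resorption, at 6.28 ± 0.968 CPM and 1.48 ± 0.890 CPM (SD, n = 3 per group; -2.07 ± 0.45, edgeR adjusted p = 0.0378). The call was lost in 4 leave-one-out fits (controls 24, 26 and 27, cuprizone 32), with adjusted p as high as 0.127.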
